A study of Mus musculus with 6 samples.

Results

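The aryl hydrocarbon receptor circuit was followed in Hepa1-6, a mouse hepatoma cell line grown in culture, with and without knockdown of Zfp207, the mouse counterpart of human ZNF207. It was taken as 7 genes chosen by name out of the 34718 genes of the count table: the receptor Ahr, its nuclear partner Arnt, its repressor Ahrr, the cytochrome P450 targets Cyp1a1, Cyp1a2 and Cyp1b1, and the target Tiparp. RNA sequencing gave 6 libraries, 3 titled shNC with the genotype control and 3 titled shZfp207 with the genotype Zfp207 knockdown. Names beginning with sh are the usual form for a short hairpin, but the sources used here give neither the number of hairpins nor their delivery nor any selection, so loss of Zfp207 and any other effect of a hairpin cannot be told apart. No treatment, receptor ligand or time is given for either group, and both were grown in medium with serum. The labels tag the tissue as tumor, while the growth protocol is one of cultured cells, and the samples were taken as a cell line. Kynurenine metabolism stands in the title of the series, and kynurenine is a known ligand of the receptor.

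The aryl hydrocarbon receptor is a transcription factor of the bHLH-PAS family that waits in the cytosol, bound to HSP90 and its cochaperones, until a ligand binds. Ligands include dioxins, polycyclic aromatic hydrocarbons and products of tryptophan such as kynurenine. The liganded receptor enters the nucleus, pairs with ARNT and binds xenobiotic response elements, whose core is GCGTG. In liver cells it switches on Cyp1a1, Cyp1a2 and Cyp1b1, the oxidases that clear many of these ligands. It also switches on its own brakes: AHRR competes for ARNT, and TIPARP, a mono-ADP-ribosyltransferase also called PARP7, represses the receptor.

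The RefSeq sequence around the start of transcription, from 250 bases before it to 50 bases from it onwards (build GRCm38.p6), was found for 6 of the 7 genes and is shown for 4 of them. Ahrr, Tiparp and Cyp1a1 are the genes that passed the test below, and Cyp1b1 is a target that was all but silent here. The core GCGTG and its reverse complement CACGC are in capitals. The windows are chr13:74292282-74292581 (minus strand) for Ahrr, chr3:65528197-65528496 (plus strand) for Tiparp, chr9:57697363-57697662 (plus strand) for Cyp1a1 and chr17:79715012-79715311 (minus strand) for Cyp1b1, each written 5′ to 3′ along the gene's strand.
Ahrr: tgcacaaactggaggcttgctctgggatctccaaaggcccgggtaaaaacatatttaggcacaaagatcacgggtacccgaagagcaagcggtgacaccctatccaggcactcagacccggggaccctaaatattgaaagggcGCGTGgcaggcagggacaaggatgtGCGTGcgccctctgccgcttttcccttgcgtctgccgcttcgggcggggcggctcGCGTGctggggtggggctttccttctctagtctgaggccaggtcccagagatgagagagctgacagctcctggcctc
Tiparp: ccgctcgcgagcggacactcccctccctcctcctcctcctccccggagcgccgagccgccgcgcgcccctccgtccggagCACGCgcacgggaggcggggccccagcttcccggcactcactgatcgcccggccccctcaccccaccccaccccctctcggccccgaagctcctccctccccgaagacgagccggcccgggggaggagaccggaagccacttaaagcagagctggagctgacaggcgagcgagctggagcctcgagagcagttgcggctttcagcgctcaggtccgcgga
Cyp1a1: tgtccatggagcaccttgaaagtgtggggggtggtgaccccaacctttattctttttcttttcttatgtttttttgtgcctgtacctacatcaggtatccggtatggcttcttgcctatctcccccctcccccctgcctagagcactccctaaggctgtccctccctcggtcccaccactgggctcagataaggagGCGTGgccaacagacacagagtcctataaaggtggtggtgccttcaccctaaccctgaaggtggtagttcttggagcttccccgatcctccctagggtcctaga
Cyp1b1: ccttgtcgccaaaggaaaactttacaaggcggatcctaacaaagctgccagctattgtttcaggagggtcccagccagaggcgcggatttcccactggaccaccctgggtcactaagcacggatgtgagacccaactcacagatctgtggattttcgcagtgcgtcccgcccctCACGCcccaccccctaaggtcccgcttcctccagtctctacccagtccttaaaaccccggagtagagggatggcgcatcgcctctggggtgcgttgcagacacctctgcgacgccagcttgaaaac

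Ahrr, which fell, carried 3 cores in this window, beginning 107, 82 and 27 bases before the start. Cyp1a1, which rose, carried 1, beginning 54 bases before the start. Tiparp, which fell, and Cyp1b1 each carried 1 on the opposite strand, 170 and 76 bases before the start. Arnt had 1 core and Cyp1a2 had none. The core, read on both strands, was found in 32.4% of all 32851 promoter windows of this length, and 3 or more copies in 3.92% of them. The longer motif TNGCGTG, which contains the core, was found on either strand in 5.07% of windows, and among the 6 genes only in Ahrr, at the copy nearest to the start. A match of letters is not a bound site, and the enhancer through which the receptor is best known to drive Cyp1a1 lies further upstream than this window.

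The libraries held 11933736, 14591630 and 16248346 counts in control replicates 1 to 3 and 15236957, 15074588 and 14629661 in knockdown replicates 1 to 3. Zfp207 had 141.4 to 216.8 CPM (counts per 1000000 counts of the library) in control cells and 46.8 to 48.1 CPM in knockdown cells (log2 fold change -1.95, standard error 0.17, edgeR adjusted p = 0.00236). Control replicate 1 stood apart. Mitochondrially encoded genes gave 10.5% of its counts, against 2.67% and 2.89% in the other controls and 5.6% to 6% in knockdown cells. The chi-square of counts over genes, per degree of freedom, was 138.8 and 148.1 between it and the other controls. It was 104.2 to 108.7 between control replicate 1 and knockdown libraries, and 77.15 to 86.67 between the other controls and knockdown libraries. Pairs within a group that did not include control replicate 1 had 7.06 to 8.92. Results for the circuit are therefore also given without it. Of 5 hepatocyte markers, Alb, Afp and Hnf4a were well expressed, while Apoa1 had 22 to 53 and Ttr 0 to 5 counts per library. Their summed level was 1607 to 2519 CPM in control and 4403 to 4708 CPM in knockdown cells. Alb, Afp and Apoa1 rose by 1.29, 1.12 and 0.85 on the log2 scale (edgeR adjusted p of 0.0316, 0.0048 and 0.0492), while Hnf4a had 0.02 (0.927). Summed markers of leukocytes (4 genes, Cd3e at 0 in every library), endothelium (3 genes) and fibroblasts (3 genes) stayed at or below 5.25, 2.05 and 0.73 CPM. The leukocyte sum was 1.23 to 2.26 CPM in control and 4.31 to 5.25 CPM in knockdown cells, mostly through Csf1r, with 2 to 14 against 45 to 52 counts, and its part in the results below was not tested.

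Within the circuit, the 2 genes of negative feedback fell while Cyp1a1, the most abundant of the targets, rose. Ahrr dropped to 0.324 of its control level and Tiparp to 0.73 of it, and Cyp1a1 rose 1.62-fold. Ahr itself was 1.24-fold higher without passing the test, and Arnt did not pass. Cyp1a2 and Cyp1b1 had too few counts to pass the filter with all 6 libraries. Of the 5 genes tested, 3 passed, 1 upward and 2 downward, where 20.6% of all 11975 genes tested passed (9.92% upward and 10.7% downward). In the fit without control replicate 1 the same 3 of 6 tested genes passed, against 52.1% of all 12108 genes tested (26.1% upward and 26.1% downward). Cyp1a2 passed the filter there and had a log2 fold change of -0.11 (edgeR adjusted p = 0.877). The median log2 fold change was 0.16 over the 5 genes, the value of Arnt, and -0.03 over all genes tested. In that second fit it turned to -0.13 over the 6 genes tested, against 0.01 over all genes. Since 2 of the 7 genes missed the filter on low counts, these counts describe the circuit and are not evidence that it stands apart from other genes. In a mixture of cells, fewer cells that express a gene and less of its RNA per cell cannot be told apart.

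**Figure D1:**
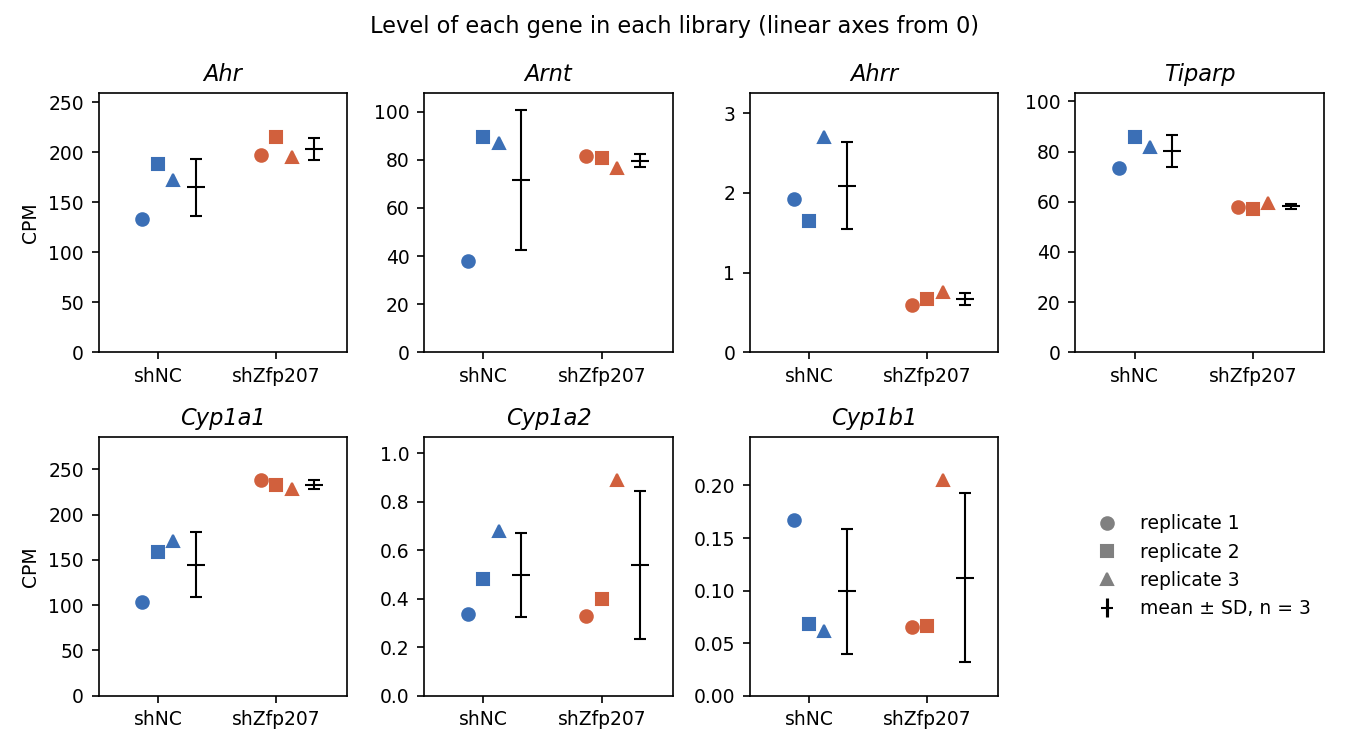
Level of the 7 genes in each library in CPM, with linear axes that start at 0 and differ between panels; markers are the 3 libraries of each group and bars are the mean ± SD. The groups do not overlap for Ahr, Ahrr, Tiparp and Cyp1a1, and control replicate 1 is lowest of all 6 for Ahr, Arnt and Cyp1a1, with 37.9 CPM for Arnt.

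The receptor gene Ahr (ENSMUSG00000019256, chromosome 12, 35497974 to 35535038 in mm10, minus strand) had 133.5, 188.5 and 172.6 CPM in control replicates 1 to 3. In knockdown replicates 1 to 3 it had 197.7, 215.8 and 195.7 CPM. All 3 knockdown libraries lay above all 3 controls, by a small margin over control replicate 2. The means on the scale used for testing were 164.4 ± 29.4 and 204.2 ± 11.6 CPM (SD, n = 3 each), and the log2 fold change was 0.31 (standard error 0.145, 95% interval -0.03 to 0.66, edgeR adjusted p = 0.172). Without control replicate 1 the difference was smaller, at 0.18, with edgeR adjusted p = 0.0509. A two-sided exact permutation test over the 3 and 3 libraries gave p = 0.1 for Ahr, as it did for Ahrr, Tiparp and Cyp1a1, and this is the smallest p the design allows. An annotated gene on the other strand covers up to 2.06% of the exons of Ahr, and the sources used here do not say whether the counting used strand.

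Arnt (ENSMUSG00000015522, chromosome 3, 95434388 to 95497240, plus strand), the partner that the receptor shares with the hypoxia factors, had 37.9, 89.7 and 87 CPM in control replicates 1 to 3. In knockdown replicates 1 to 3 it had 81.4, 80.9 and 76.6 CPM. The knockdown libraries lay together, between control replicate 1, which held 0.429 of the mean of the other controls, and control replicates 2 and 3. The log2 fold change was 0.16 (standard error 0.308, 95% interval -0.57 to 0.90, edgeR adjusted p = 0.741), and it turned to -0.14 without control replicate 1 (edgeR adjusted p = 0.062). Within a library Ahr had 3.52, 2.1 and 1.98 counts per count of Arnt in control cells and 2.43, 2.67 and 2.56 in knockdown cells. The groups overlapped in this ratio with control replicate 1 above all other libraries. Without that library they did not overlap, and the log2 difference was 0.32, against 0.06 with it.

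Ahrr, the repressor gene (ENSMUSG00000021575, chromosome 13, 74211118 to 74292331, minus strand), was scarce and fell. It had 23, 24 and 44 counts in control replicates 1 to 3, or 1.93, 1.64 and 2.71 CPM. It had 9, 10 and 11 counts in knockdown replicates 1 to 3, or 0.591, 0.663 and 0.752 CPM. The lowest control library held over 2 times the level of the highest knockdown library, and control replicate 1 lay between the other controls. The log2 fold change was -1.63 (standard error 0.32, 95% interval -2.39 to -0.87, edgeR adjusted p = 0.0168). Summed over libraries, 91 control counts and 30 knockdown counts gave a ratio of 0.314 relative to the library totals, with an exact 95% counting interval of 0.2 to 0.479 that covers counting error only. The log2 fold change was -1.69 in the fit without control replicate 1 (edgeR adjusted p = 0.00528). Only 0.232% of the 50-base stretches of its transcripts occur in transcripts of another gene.

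Tiparp (ENSMUSG00000034640, chromosome 3, 65528410 to 65555518, plus strand), the second brake, had 73.3, 85.9 and 81.6 CPM in control replicates 1 to 3. It had 57.8, 57.1 and 59.4 CPM in knockdown replicates 1 to 3. The knockdown libraries were close to each other and all below the controls. The means were 80 ± 6.98 and 58.4 ± 1.34 CPM (SD, n = 3 each), with a log2 fold change of -0.45 (standard error 0.0974, edgeR adjusted p = 0.0218). It was -0.52 without control replicate 1 (edgeR adjusted p = 0.000398). An annotated gene on the other strand covers up to 5.12% of its exons.

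Cyp1a1 (ENSMUSG00000032315, chromosome 9, 57697613 to 57703822, plus strand), the oxidase whose induction is the classical readout of the receptor, had 103.7, 158.8 and 171 CPM in control replicates 1 to 3. It had 238.1, 233 and 228.1 CPM in knockdown replicates 1 to 3. Every knockdown library exceeded every control, and control replicate 1 was the lowest of all, at 0.629 of the mean of the other controls. The means were 144.1 ± 36.5 and 234.3 ± 3.85 CPM (SD, n = 3 each), and the log2 fold change was 0.70 (standard error 0.189, 95% interval 0.25 to 1.15, edgeR adjusted p = 0.043). Without control replicate 1 the rise was 0.51, smaller in size and with a smaller edgeR adjusted p of 0.000168.

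The other P450 targets were close to silent. Cyp1a2 (ENSMUSG00000032310, chromosome 9, 57676937 to 57683655, minus strand), the P450 of adult hepatocytes that lies next to Cyp1a1 in opposite orientation, had 4, 7 and 11 counts in control replicates 1 to 3 and 5, 6 and 13 in knockdown replicates 1 to 3. The groups overlapped, and the ratio of knockdown to control counts was 1.04 (exact 95% counting interval 0.558 to 1.94). Of its 50-base stretches, 4.79% also occur in transcripts of Cyp1a1, so some of these few counts could be reads of that gene. Cyp1b1 (ENSMUSG00000024087, chromosome 17, 79706953 to 79715041, minus strand), the P450 found mainly outside the liver, had 2, 1 and 1 counts in control and 1, 1 and 3 in knockdown replicates 1 to 3. No library of either group exceeded the 3 counts that an observed 0 would allow, and a difference in Cyp1b1 was not detectable at this depth.

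Per length of gene, the order of the 7 levels was the same in both groups. Cyp1a1 led with a mean FPKM (fragments per kilobase of gene per 1000000, as deposited) of 55 ± 13.7 in control and 88.8 ± 1.91 in knockdown cells. Ahr followed with 25.1 ± 4.31 and 31 ± 1.69 FPKM, Tiparp with 15.2 ± 1.21 and 11 ± 0.223 FPKM, and Arnt with 5.42 ± 2.21 and 6.03 ± 0.203 FPKM (SD, n = 3 each). Cyp1a2, Ahrr and Cyp1b1 all stayed below 0.47 FPKM in every library. Neighbours in this order did not overlap in their libraries, except Cyp1a2 and Ahrr in control cells, with 0.177 to 0.357 and 0.147 to 0.242 FPKM. Among the 11975 genes tested, the mean FPKM of Cyp1a1 lay at percentile 93.4 in control and 96.5 in knockdown cells, while that of Ahrr went from percentile 3.4 to 0.626.

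Cyp1a1 and Tiparp are targets of the same receptor, and their levels can also be set side by side within each library, where scaling between libraries plays no part. These ratios were chosen after the levels had been seen, and they restate the rise of one gene and the fall of the other without adding evidence for either. Cyp1a1 had 1.41, 1.85 and 2.1 counts per count of Tiparp in control replicates 1 to 3, and 4.12, 4.08 and 3.84 in knockdown replicates 1 to 3. The log2 difference was 1.19 (standard error 0.171 from the libraries), and 1.03 without control replicate 1. Per count of the receptor Ahr, Cyp1a1 went from 0.776, 0.842 and 0.991 to 1.2, 1.08 and 1.17 counts, a log2 difference of 0.41 (standard error 0.114). Tiparp per count of Ahr went from 0.549, 0.456 and 0.473 to 0.292, 0.265 and 0.304 counts, a log2 difference of -0.78 (standard error 0.101).

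**Figure D2:**
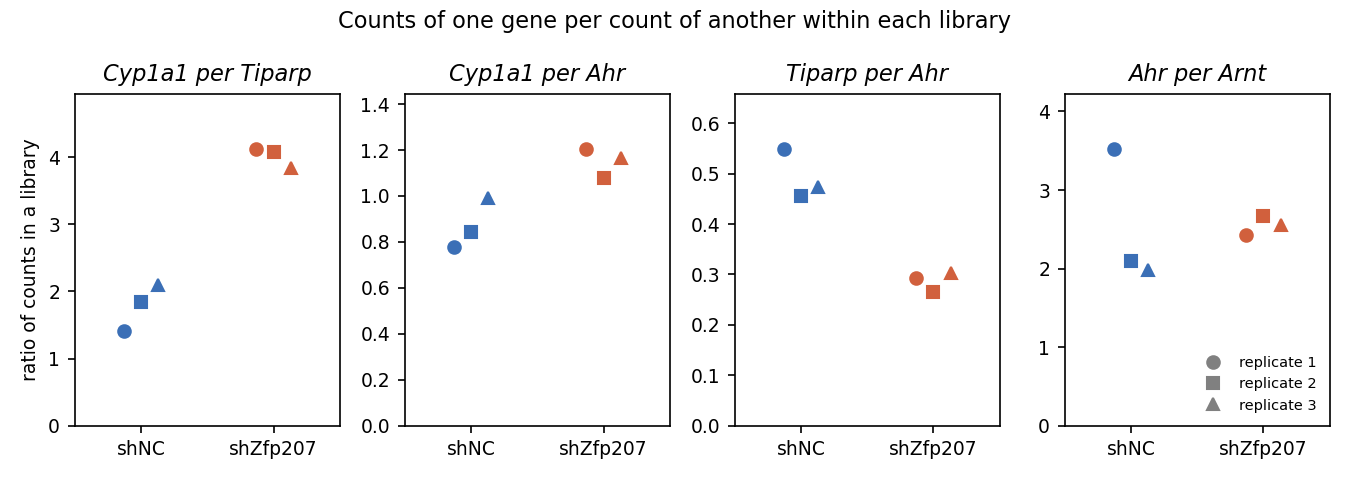
Counts of the first gene per count of the second within each library, on linear axes that start at 0 and differ between panels. The Cyp1a1 to Tiparp ratio is 1.41 to 2.1 in control and 3.84 to 4.12 in knockdown libraries. The Ahr to Arnt ratio overlaps between the groups only through control replicate 1.

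The 3 calls were lost when most single libraries were left out, and all 3 were kept without control replicate 1. With each library left out in turn, Ahrr kept its call in 2 of the 6 fits, and Cyp1a1 and Tiparp each in 1, the fit without control replicate 1. The highest edgeR adjusted p in those fits was 0.0856 for Ahrr, 0.136 for Cyp1a1 and 0.105 for Tiparp. Their directions held in all 6 fits, with log2 fold changes of -1.77 to -1.39 for Ahrr, -0.52 to -0.40 for Tiparp and 0.51 to 0.84 for Cyp1a1. Of all genes tested, 4.08% passed with all 6 libraries and in each of the 6 fits. Ahr, Ahrr, Tiparp and Cyp1a1 had no overlap between the groups, which held for 44.7% of all genes tested.

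**Figure D3:**
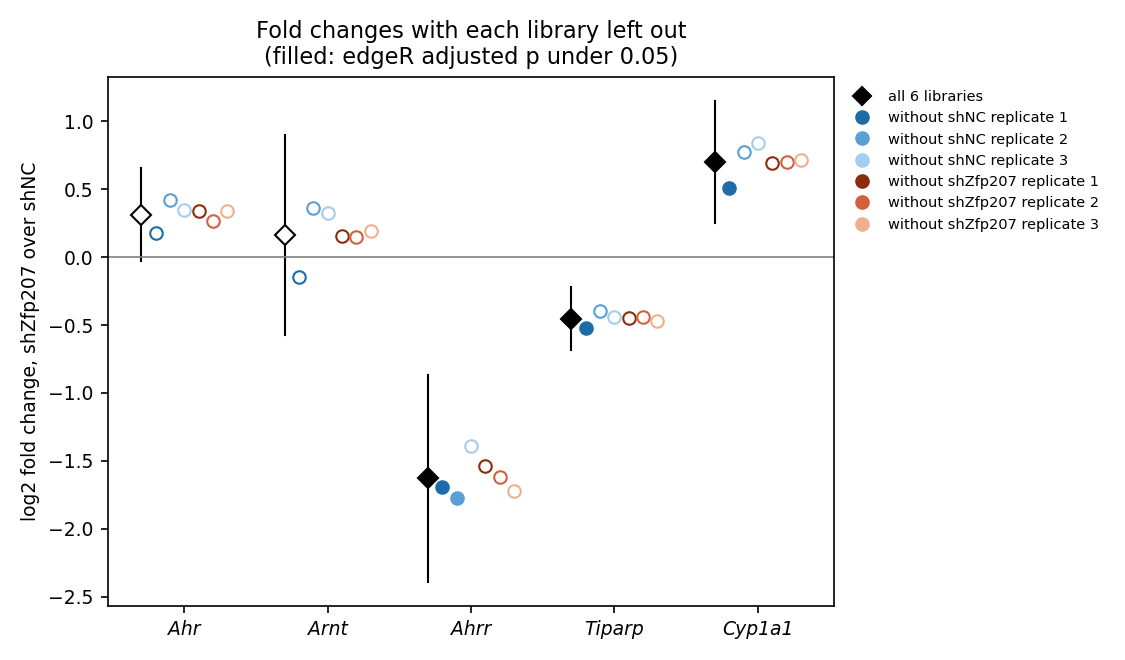
Fitted log2 fold change of the 5 tested genes with all 6 libraries (diamonds, bars are 95% intervals) and with each library left out (circles, coloured by library); filled symbols have an edgeR adjusted p under 0.05. Arnt changes sign without control replicate 1, and Ahrr, Tiparp and Cyp1a1 keep their sides of 0.

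The genes whose pattern over the 6 libraries lay closest to each of the 5 were found among about 10225 genes with at least 2 CPM on average. The measure was the root mean square difference of log2 CPM after each gene's own mean was subtracted. Genes with Gm-number or Rik names, pseudogenes, mitochondrial genes and genes with no count in any 1 library were left out of the candidates. Closest to Cyp1a1 were Gch1, Avpr1a and Ifi27l2b, at 0.0333, 0.0388 and 0.04 on the log2 scale. Gch1 encodes the entry enzyme of tetrahydrobiopterin synthesis and Avpr1a a vasopressin receptor. Closest to Tiparp were Msantd4, Pyroxd1 and Pum3, at 0.0133, 0.0151 and 0.0234. For Ahr they were Ncapd3, a condensin subunit gene, Khnyn and Edc3, at 0.0336, 0.0365 and 0.0413, and for Arnt Vprbp, Fam65a and Ppp1r12a, at 0.0278, 0.0287 and 0.0312. Ahrr, at 2.085 CPM in control and 0.6725 CPM in knockdown cells, itself lay below that limit on average, so genes as scarce were not candidates. Tpmt, the thiopurine methyltransferase gene, Mast3 and Ddit3, which encodes the stress factor CHOP, came nearest to Ahrr at 0.157, 0.187 and 0.213. All of these genes share the same 6 libraries in 2 groups, control replicate 1 included, and the closeness is a description only.

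The genes that hold the unliganded receptor in the cytosol were led by a fall of Hsp90aa1, the inducible HSP90 gene. Of 3 tested, 1 passed, where 20.6% of all genes did, with a list median of -0.63 on the log2 scale. Hsp90aa1 fell from 1239 ± 124 to 725.4 ± 12.6 CPM (SD, n = 3 each; log2 fold change -0.77, standard error 0.114, edgeR adjusted p = 0.00728). Hsp90ab1, the constitutive HSP90 gene, and Ptges3, the gene of the cochaperone p23, had values of -0.32 (edgeR adjusted p = 0.133) and -0.63 (0.119). Without control replicate 1, all 3 were lower and passed, where 52.1% of all 12108 genes tested passed, and the list median was -0.40, with Ptges3 at -0.27. Hsp90aa1 kept its call in 4 of the 6 fits that left a library out. These and other genes of the lists that did not pass were named after their values were seen.

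Among the other partners and paralogs of Arnt, Arnt2, which can stand in for Arnt as a partner, rose. Of 11 genes 5 could be tested and 1 passed, or 20% against 20.6% of all genes, with a list median of 0.01. Arnt2 had 240, 374 and 418 counts in control replicates 1 to 3 and 621, 572 and 526 in knockdown replicates 1 to 3, all above the controls. The log2 fold change was 0.69 (standard error 0.134, edgeR adjusted p = 0.016). Hif1a and Epas1, the hypoxia factors that compete for Arnt, had log2 fold changes of -0.18 (edgeR adjusted p = 0.679) and -0.33 (0.607), and both were low in control replicate 1, like Arnt. In the fit that left that library out they were -0.46 (edgeR adjusted p = 0.00032) and -0.70 (0.000125) and passed. There 4 of the 5 passed, 2 in each direction, against 52.1% of all genes, and the list median was -0.26. Sim2, Npas1, Npas3 and Npas4 had no count in any library.

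Of 11 genes of coregulators and of receptor turnover, 3 were higher and passed, namely 27.3% of the list against 20.6% of all genes tested, and the list median was 0.26. The p160 coactivator genes Ncoa1 and Ncoa3 rose by 0.76 and 0.86 on the log2 scale, and the acetyltransferase gene Crebbp by 0.32, with edgeR adjusted p of 0.023, 0.0338 and 0.0499. With each library left out, Ncoa1 kept its call in 2 of 6 fits and Ncoa3 and Crebbp in 1. Crebbp also missed the threshold with upper-quartile scaling (edgeR adjusted p = 0.107), without the filter (0.098), with the replicate block (0.134) and with limma (limma adjusted p = 0.118). Control replicate 1 was lowest of all libraries for Ncoa3, with 52 CPM against 87 to 140.8 CPM elsewhere, and without it the rise was 0.64. In the same fit 5 genes of the list were higher and 1 lower, or 54.5% against 52.1% of all genes, and the list median was 0.13.

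Other targets of the receptor moved in both directions, and most of those tested did not pass. Of 13 genes 8 could be tested, 2 rose and 1 fell, or 37.5% against 20.6% of all genes, and the list median was 0.18. When control replicate 1 was left out, 3 were higher and 2 lower, or 62.5% against 52.1% of all genes, with a list median of 0.04. Nqo1, the quinone reductase gene that NRF2 also controls, had 21, 20 and 19 counts in control replicates 1 to 3 and 107, 121 and 98 in knockdown replicates 1 to 3. Its log2 fold change was 2.36 (standard error 0.224, edgeR adjusted p = 0.00288), and it passed with each library left out. Ugt1a6b, a glucuronosyltransferase gene, had 6, 0 and 0 counts in control and 35, 37 and 28 counts in knockdown replicates 1 to 3, a ratio of 15.9 (exact 95% counting interval 7.04 to 44.3; edgeR adjusted p = 0.0293). Its 6 control counts were all in control replicate 1, and 60.6% of its exonic sequence is shared with other genes of its strand, so its level is uncertain. Xdh, the xanthine dehydrogenase gene, fell by 0.63 in log2 terms (edgeR adjusted p = 0.0381). With each library left out, Ugt1a6b and Xdh each kept their call in 1 of 6 fits. Cyp2s1, with 238.5 CPM in control and 253.8 CPM in knockdown cells, had a log2 fold change of 0.09 (edgeR adjusted p = 0.706), and Serpinb2 one of -0.01 (0.961). Nfe2l2, the NRF2 gene and itself a target, had a log2 fold change of 0.27 (edgeR adjusted p = 0.225), and of 0.13 (0.0427) with control replicate 1 left out. Aldh3a1, a classical member of the receptor's gene battery, had 0 to 5 counts per library.

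The enzymes and carriers that supply tryptophan-derived ligands were examined because the series title names kynurenine. Of 14 genes 9 could be tested and 1 passed, downward, or 11.1% against 20.6% of all genes, with a list median of -0.10. This was Ccbl2, a kynurenine aminotransferase gene whose product makes kynurenic acid, with a log2 fold change of -0.56 (standard error 0.111, edgeR adjusted p = 0.0172). Il4i1, the amino acid oxidase gene whose product turns tryptophan into indole-3-pyruvate, a source of receptor ligands, had 116.1 ± 5.23 CPM in control and 115 ± 1.34 CPM after knockdown (SD, n = 3 each), with a log2 fold change of -0.01 (95% interval -0.21 to 0.18, edgeR adjusted p = 0.928). The kynurenine-forming dioxygenase genes Ido1 and Tdo2 had at most 2 counts and 1 count in any library, and Ido2 had 9 to 20 counts in control against 6 to 8 in knockdown libraries (edgeR adjusted p = 0.0646). Slc7a5 and Slc3a2, the chains of the carrier that can bring tryptophan and kynurenine into cells, had log2 fold changes of -0.10 and -0.21 (edgeR adjusted p of 0.807 and 0.217), and both passed downward in the fit without control replicate 1, at -0.36 and -0.27. In that fit 4 of the 9 were lower and passed, Ido2 (-1.37) among them, or 44.4% against 52.1% of all genes, and the list median was -0.27.

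The genes that serve CYP1A1 as an enzyme were examined last. Of 13 genes for electron transfer to P450s and for haem synthesis, all were tested and 1 passed, or 7.69% against 20.6% of all genes, with a list median of -0.15. This was Fech, the ferrochelatase gene of the final step of haem synthesis, which rose from 64.8 ± 4.79 to 114.1 ± 3.42 CPM (SD, n = 3 each; log2 fold change 0.82, standard error 0.092, edgeR adjusted p = 0.00398) and passed with each library left out. Por, the P450 reductase gene, had a log2 fold change of -0.15 (edgeR adjusted p = 0.31). Alas1, the entry enzyme of haem synthesis in liver, had one of -0.55 (edgeR adjusted p = 0.0808). In the fit without control replicate 1, 2 genes of this list were higher and 5 lower, or 53.8% against 52.1% of all genes, and the list median was -0.02. Por and Alas1 were among the 5, at -0.22 and -0.73.

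**Figure D4:**
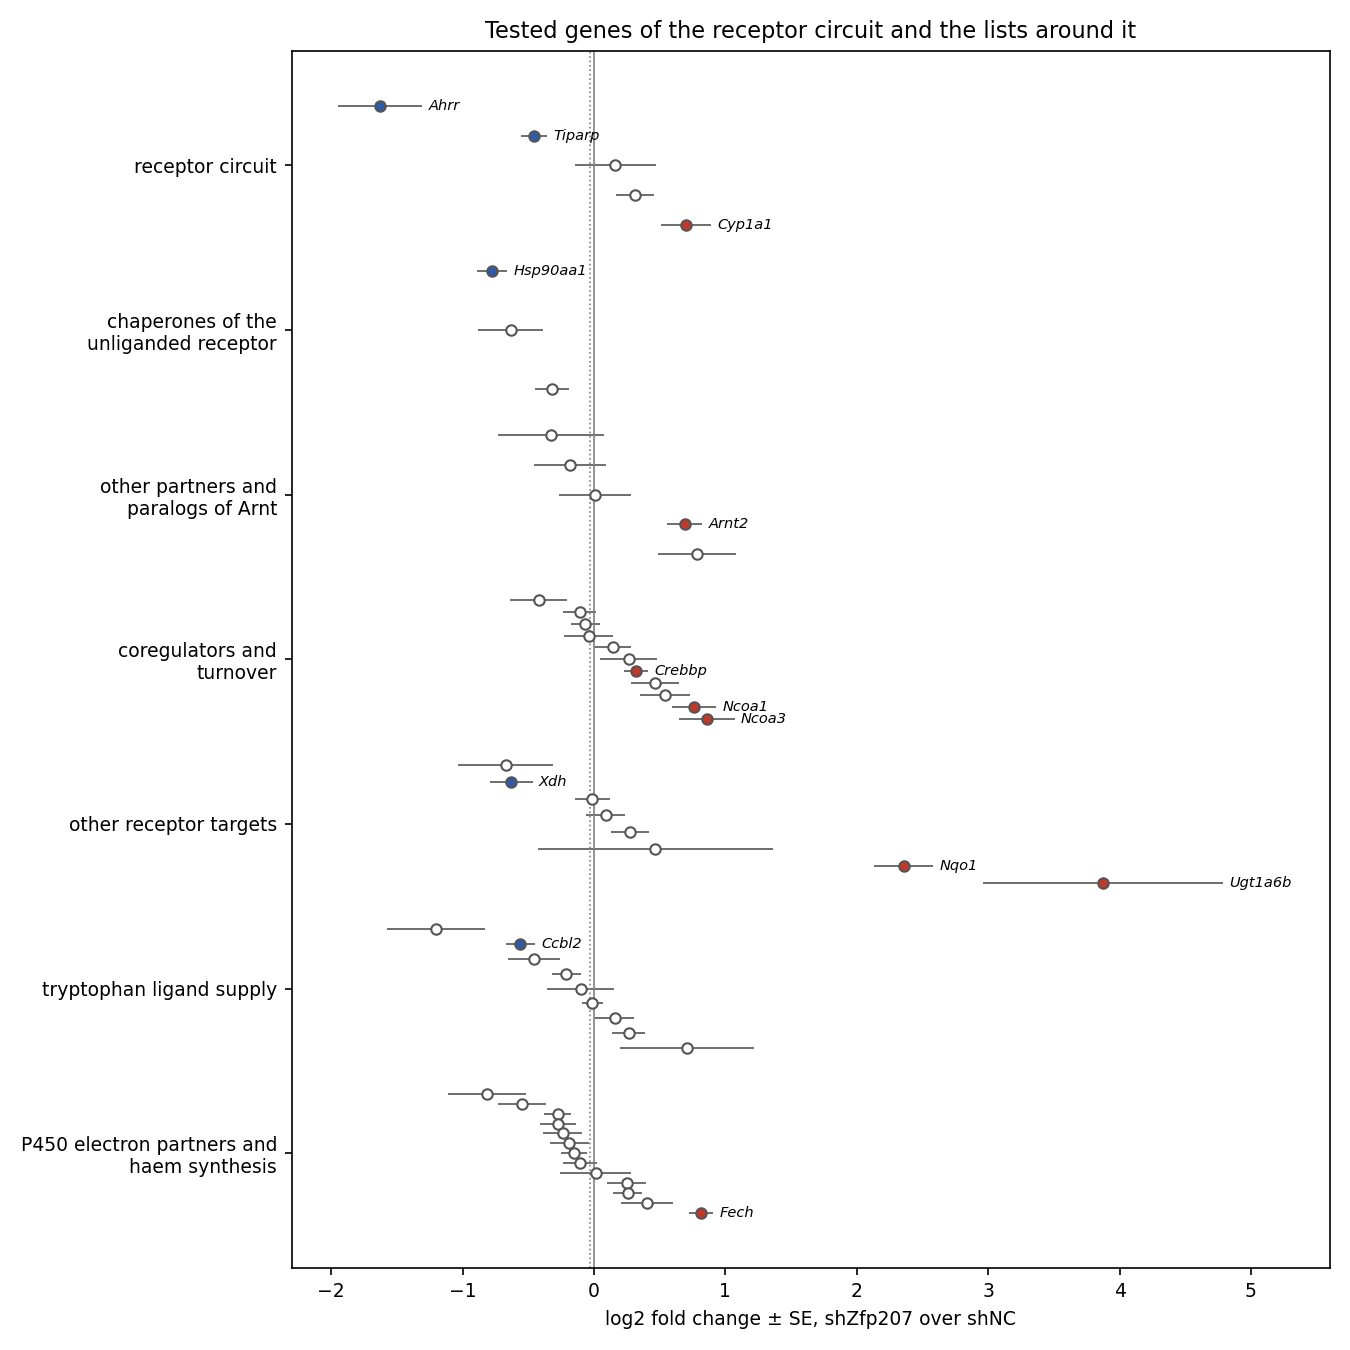
Log2 fold change of knockdown over control cells for each tested gene of the receptor circuit and of the 6 lists around it; bars are SE, red and blue points passed upward and downward (edgeR adjusted p under 0.05) and are named, open points did not pass, and the dotted line is the median of all genes tested, -0.03. In the receptor circuit Ahrr and Tiparp lie to the left and Cyp1a1 to the right.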

How the data were processed

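Reads per gene were given by the authors as whole-number counts, not normalized, and as FPKM values for the same genes, per the file headers. Deposited FPKM values matched the counts per gene length and library total within 0.0216% in 4601 genes. HISAT2 2.0.5, featureCounts 1.5.0-p3 and mm10 are named in the submitters' processing notes. The sources used here give no annotation, strand setting or filter.

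The test on counts was that of edgeR 4.0.16 (R 4.3.3): filterByExpr left 11975 genes, TMM scaling and a quasi-likelihood fit with the group as its only term followed, with Benjamini-Hochberg adjustment of the two-sided p-values over all of them, with a threshold of 0.05. An SE is the log2 fold change divided by the square root of its F statistic. Means ± SD of a group use TMM-scaled CPM, while values per library are CPM of the library total. Data were also simulated from the genes' means over these libraries, with the same depths and dispersions (11821 genes tested). Recovery was 8.16% at 1.5-fold, 52% at 2-fold and 87.8% at 4-fold, with 8.41% false calls. Only 49, 98 and 49 of the genes tested had been changed at these steps, a far smaller share than the 20.6% that passed in the data. No simulated library was set apart as control replicate 1 was, so these rates need not hold for the data. Alternatives were RLE and upper-quartile scaling, leaving out mitochondrial genes, no filter beyond 1 count, DESeq2 1.42.0, limma 3.58.1 on log2(FPKM + 0.1), the replicate number as a block, and each library left out.

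The 7 genes and the lists were chosen with earlier results of these data known. Some genes of the lists are not reported here and enter none of their counts. The rule for named genes took the 7, Zfp207, up to 4 genes with the smallest p from each list (the 2 with most counts where none passed) and the 3 closest patterns per tested gene. Overlap and 50-base stretches were taken from GENCODE M21, and promoters from RefSeq (C57BL/6J reference, not the cell line). The labels do not say whether replicates were separate cultures, and the spread behind each p-value may therefore be technical. No 2 libraries agreed within counting noise.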

Additional observations from a re-analysis of the deposited data

How the results depend on the processing

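Directions of Ahr, Ahrr, Tiparp, Cyp1a1 and Zfp207 held under all 7 alternatives and with each library left out, and Zfp207 passed in all of them. Arnt turned to -0.14 without control replicate 1. All genes passing numbered 2460 (20.5% of those tested) with RLE scaling, 2584 (21.6%) with upper-quartile scaling and 2461 (20.6%) without mitochondrial genes. They numbered 2009 (11%) without the filter, 3063 (16.7%) with DESeq2 and 2461 (20.6%) with limma, against 2466 (20.6%) in the main fit. The fits without the filter and with DESeq2 took in 18294 genes and all 7 of the circuit. The others took in 11959 or 11975 genes and 5 of the circuit. In these 6 alternatives the same number of the 7 genes passed, namely 3. Fitted log2 fold changes of Ahrr were -1.69 to -1.61 there by count models and -0.83 by limma, whose pseudocount shrinks low genes.

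The replicate numbers did not pair the libraries (correlations of same-numbered deviations from group means -0.008, 0.008 and 0.053). A fit with the replicate block gave 987 genes, or 8.24% of all genes tested, and 3 genes of the fixed lists against 10. Of the 7 genes 0 passed there by edgeR (3 by DESeq2 without a block). There Ahrr was -1.60 (adjusted p = 0.057), Cyp1a1 0.73 (0.072) and Tiparp -0.45 (0.07).

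With each library left out, all genes passing ranged from 534 (without knockdown replicate 3) to 6313 (without control replicate 1), with 1529 and 1260 without control replicates 2 and 3 and 719 and 596 without knockdown replicates 1 and 2. Genes of the fixed lists passing ranged from 2 (without knockdown replicate 2 or 3) to 29 (without control replicate 1), with 6, 4 and 3 without control replicate 2, control replicate 3 and knockdown replicate 1. Of the 7 genes 0 to 3 passed by edgeR in these fits, with 5 or 6 of them tested, where 4.37% to 52.1% of all genes tested passed. Log2 fold changes ranged from 0.18 to 0.42 for Ahr, -0.14 to 0.36 for Arnt, -1.77 to -1.39 for Ahrr, 0.51 to 0.84 for Cyp1a1 and -0.52 to -0.40 for Tiparp. Of the 10 list genes that passed, Nqo1 and Fech did so under every alternative and with every library left out, and the others kept their direction but missed the threshold in at least 1. The depth limits Ahrr to 9 to 44 counts per library and leaves Cyp1a2 and Cyp1b1 out of the main fit. Both entered the fits with DESeq2 and without the filter, and were not among the 3 genes that passed there.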

Other observations

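Other genes of the PARP family, to which Tiparp belongs, were examined after the values of Tiparp had been seen. All 14 were tested, 1 rose and 1 fell, or 14.3% against 20.6% of all genes, with a median log2 fold change of 0.02. Parp12, another mono-ADP-ribosyltransferase gene, rose by 0.52 (standard error 0.129, edgeR adjusted p = 0.0336). Parp16, whose product sits in the endoplasmic reticulum membrane, fell by 0.71 in log2 terms (standard error 0.127, edgeR adjusted p = 0.0125). With each library left out, Parp12 kept its call in 1 of 6 fits and Parp16 in 3. Parp1, whose product responds to DNA breaks, had 262.2 ± 34.5 and 267.2 ± 2.81 CPM (SD, n = 3 each), a log2 fold change of 0.03 (edgeR adjusted p = 0.893). Without control replicate 1, 3 were higher and 3 lower, or 42.9% against 52.1% of all genes, with a median of -0.05.

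The nearest tested genes on each side of the 7 loci, also chosen after the data were examined, numbered 24, of which 2 were higher and 3 lower, or 20.8% against 20.6% of all genes tested. Edc3, next to Cyp1a1 on chromosome 9, and Clk3 beyond it had log2 fold changes of 0.35 (edgeR adjusted p = 0.139) and 0.29 (0.048). Csk and Ulk3 on the side of Cyp1a2 had -0.16 (0.277) and -0.17 (0.619). Exoc3, beside Ahrr on chromosome 13, fell by 0.61 in log2 terms (edgeR adjusted p = 0.0499), while Pdcd6 on the other side had -0.24 (0.199). The other neighbours that passed were Hdac9 and Bzw2 on the 2 sides of Ahr, at -1.98 (edgeR adjusted p = 0.0133) and -0.37 (0.0437), and Hnrnpll on 1 side of Cyp1b1, at 0.41 (0.0361). Each of these was separated from the named locus by another tested gene. Hdac9 was scarce, at 0.904 CPM in control and 0.224 CPM in knockdown cells.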
